A study of Mus musculus with 10 samples.

Results

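The genes described here build and serve the photoreceptor cilium, and they comprise 40 named genes among the 57186 gene rows of a mouse retinal RNA count table. They were chosen by name and function: 11 subunits of intraflagellar transport complex B (IFT-B), 3 of complex A (IFT-A), 8 genes for the BBSome and its GTPase, 2 chaperonin-like BBSome assembly factors, 10 connecting cilium and transition zone genes, 5 genes for lipidated cargo and small GTPases, and the ciliary kinase gene Mak. All 40 had a row. Each of the 10 bulk libraries came from neuroretina of C57BL6/JRj female mice taken 14 days after an injection of 1 µL into the vitreous. In the CNP group (5 libraries) the injection was hg-C3N4, a graphitic carbon nitride nanoparticle, at 1 mg/mL in PBS, and in the PBS group (5 libraries) it was PBS alone. The submitters' design counts the CNP samples as 5 mice and the PBS samples as 5 eyes. No label says whether libraries came from separate animals, so the p-values measure the spread between these libraries, which may in part be technical. Libraries are named by group and by the number in their title, such as PBS 14.

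The outer segment of a rod or cone is a modified primary cilium, joined to the cell body by a narrow connecting cilium. IFT trains, pulled by kinesin and dynein motors, carry building material along it, the BBSome removes membrane proteins that do not belong there, and transition zone proteins gate the entrance. Lipid-anchored phototransduction proteins reach the outer segment bound to the carriers PDE6D and UNC119, which release their cargo in response to the GTPase ARL3. Inherited defects in many of these genes cause retinal degeneration.

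No cilium gene differed between CNP and PBS beyond the spread between libraries. Of the 40, all passed the filter on low counts, 0 had an adjusted p under 0.05 (edgeR quasi-likelihood test, Benjamini-Hochberg over 11499 genes), and 0 had an unadjusted p under 0.05. Over all tested genes the share called was 0% at the adjusted threshold, and at the unadjusted one 0.583% were higher and 0.609% lower in CNP. The smallest adjusted p of any member was 0.9997. For no member did the CPM (counts scaled to library size by TMM, with 1000000 as the base) of the 5 CNP libraries lie wholly above or wholly below that of the 5 PBS libraries, which happened for 0.122% of tested genes in the higher and 0.165% in the lower direction. Values varied between libraries within both groups. With TMM scaling, 14 of the 40 genes were higher in all 5 libraries numbered above 10 than in the other 5, against 9.82% of tested genes, and 0 were lower, against 10.8%. Scaled by library totals alone, 4 were higher, against 3.45% of genes, and 1 was lower, against 21.5%. Rpgrip1 ranged 3.47-fold on a pattern that followed neither treatment nor number.

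The libraries held 3328518 to 5428697 counts. Within groups, pairs of libraries differed by more than counting error in all 20 cases (chi-square per degree of freedom 3.99 to 32.6), so no pair was merged as repeat deposits of 1 library. This does not show that they came from separate animals. Markers of rods and cones were present in every library, with the 10 rod markers summing to between 54070 and 104243 CPM. Genes of motile cilia, which are built by other epithelia, summed to only 11.4 to 17.7 CPM over 9 markers, and none of the 9 was at 0 in all libraries. In bulk RNA, fewer cells of a type and less RNA per cell cannot be told apart.

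The upstream sequences of 5 members are shown because the results turn on these genes: Pde6d, Unc119 and Arl3 were the most abundant per exon length, Ift46 was the steadiest and Rpgrip1 the most variable. Each is the 150 bases before the RefSeq transcription start (GRCm38.p6), 5′ to 3′ on the gene's strand, and capitals mark a match to a motif named after the sequences. The bases just after the start were found in a GENCODE M21 transcript of the same gene for Unc119, Arl3, Ift46 and Rpgrip1, but not for Pde6d. The windows lie at chr1:86582786-86582935 (minus strand) for Pde6d, chr11:78343345-78343494 (plus) for Unc119, chr19:46573183-46573332 (minus) for Arl3, chr9:44772859-44773008 (plus) for Ift46 and chr14:52110753-52110902 (plus) for Rpgrip1.
Pde6d: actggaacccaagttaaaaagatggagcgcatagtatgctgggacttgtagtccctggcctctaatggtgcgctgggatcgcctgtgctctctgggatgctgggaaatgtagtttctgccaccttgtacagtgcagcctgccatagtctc
Unc119: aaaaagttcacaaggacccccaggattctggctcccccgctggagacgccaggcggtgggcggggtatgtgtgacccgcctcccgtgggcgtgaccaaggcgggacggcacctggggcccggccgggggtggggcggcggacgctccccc
Arl3: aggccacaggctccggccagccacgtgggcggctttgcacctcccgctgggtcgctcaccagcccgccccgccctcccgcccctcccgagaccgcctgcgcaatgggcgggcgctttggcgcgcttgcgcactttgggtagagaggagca
Ift46: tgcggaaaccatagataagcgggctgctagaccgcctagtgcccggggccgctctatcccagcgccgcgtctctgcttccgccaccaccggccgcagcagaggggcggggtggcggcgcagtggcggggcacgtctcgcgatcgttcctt
Rpgrip1: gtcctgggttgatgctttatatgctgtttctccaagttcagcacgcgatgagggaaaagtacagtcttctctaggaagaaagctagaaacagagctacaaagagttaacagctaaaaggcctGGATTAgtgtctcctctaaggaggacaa

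Only the Rpgrip1 window shown holds a marked match, GGATTA beginning 28 bases before the start, the core recognised by Crx-type homeodomain factors of photoreceptors. In all, 6 motif spellings were searched on both strands, each over the 250 bases before the start and over the full 300-base window that runs 50 bases past it, in the 36 members and 27025 genes with a window. GTTGCC, a half-site of the RFX factors that act on ciliary genes, was in 5 of 36 members over 250 bases against 11.8% of all genes, and in 13 of 36 over 300 bases against 14.1%. The count for GTTGCC thus depended on whether the 50 bases after the start were included. GTTGCTA was in 4 members (3.71% of genes) over 250 bases and 5 (4.28%) over 300. GGATTA was in the 4 members Bbs1, Mak, Rpgrip1 and Unc119 with either window (7.21% and 8.14% of genes), in Unc119 at another of its 3 starts than the one shown. TAATCT was also in 4 members with either window (8.40% and 9.39% of genes). The paired RFX half-sites were in 2 members (1.37% of genes) and 3 (1.66%), and the degenerate X-box in 6 (6.53%) and 8 (7.84%). Matches to both of these can overlap GTTGCC. The motifs, windows and genes shown were chosen with results known, and a match describes letters only.

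The levels of the members spanned 3 orders of magnitude when divided by exon length. Mean CPM without that division ran from 3.38 (Rpgr) to 1383 (Pde6d). Per kilobase of exon, the carriers and their GTPases led, with Pde6d at 635 CPM per kb, Unc119 at 464, Arl3 at 378 and Arl6, the GTPase that recruits the BBSome to membranes, at 179. Ift43 (137) and Ift20 (105) followed, and Rpgrip1l closed the order at 0.346 CPM per kb, behind Rpgr (0.466) and Ift140 (0.474). Without division by length, Pde6d, Unc119, Arl3 and Arl6 held 64.6% of the 5937 CPM summed over the members, 12 members averaged 100 CPM or more and 8 were under 10 CPM. Over the 10 libraries the ranges of neighbours in this order overlapped, except between Arl3 and Arl6 and between Ift20 and Bbs5. Exon length was the union of all annotated exons of a gene. If reads were counted near the 3′ end, division by this length understates the longest genes, such as Rpgrip1l and Cep290. By mean CPM without the division, Rpgr (3.38), Ift140 (3.95) and Bbs10 (4.70) lay below Rpgrip1l (5.08).

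**Figure D1:**
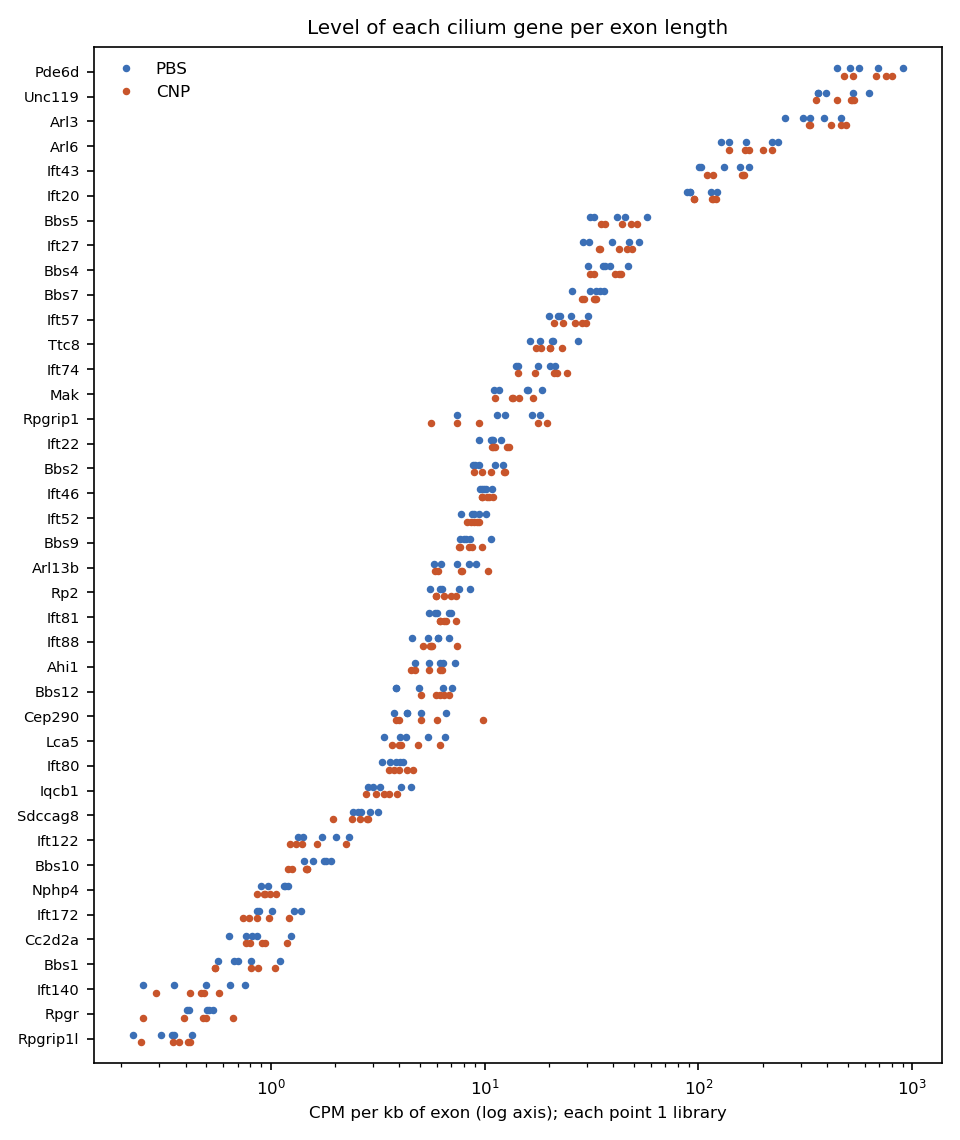
Level of each member in CPM per kb of exon (log axis), 1 point per library, PBS in blue and CNP in orange. Pde6d, Unc119 and Arl3 lie highest and Rpgrip1l lowest, and the PBS and CNP points of every member overlap.

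IFT-B subunits form the anterograde train. In CNP against PBS, 9 of 11 had a positive log2 fold change, none past the test, from -0.26 for Ift172 to 0.18 for Ift74. Over all tested genes 48.8% were positive. With library number above 10 as a covariate, Ift27 (-0.03) and Ift88 (-0.01) turned negative, and the other IFT-B signs stayed. Ift20, which also tethers to the Golgi and was the most abundant of the complex, stood at 134, 139, 140, 185 and 175 CPM in PBS 2, 6, 10, 14 and 18, and at 145, 145, 176, 179 and 184 CPM in CNP 4, 8, 12, 16 and 20. Its low values were the libraries numbered up to 10 in both groups, and the groups overlapped (154 ± 23.6 against 166 ± 19.0 CPM, SD, n = 5 each; log2 fold change 0.10, SE 0.12). Ift172, the large peripheral subunit needed to turn trains around at the tip, read 6.74, 8.48, 9.17, 5.74 and 5.86 CPM in PBS and 4.93, 8.04, 5.72, 5.24 and 6.46 CPM in CNP, in the same library order. Its log2 fold change of -0.26 (SE 0.20, exact permutation p = 0.222) rested on 168 PBS and 134 CNP counts. Ift22, a small GTPase-like subunit, read 39.1, 34.1, 38.8, 43.2 and 39.4 CPM in PBS and 39.5, 39.2, 46.1, 47.2 and 40.5 CPM in CNP, a log2 fold change of 0.13 (SE 0.10, exact permutation p = 0.135). Its groups overlapped, with CNP 12 and CNP 16 the highest.

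Ift46, which bridges cargo such as dynein arms to the train, was the steadiest member at 20 CPM or more. It stood at 61.2, 69.8, 62.6, 64.0 and 65.1 CPM in PBS and at 62.3, 62.5, 70.1, 67.6 and 66.1 CPM in CNP. The coefficient of variation (CV) was 4.90% over all 10 libraries, below the 5.87% that Poisson counting alone gives, and the 95% interval of the log2 fold change ran from -0.15 to 0.20. Ift27, Ift74, Ift57, Ift80, Ift81, Ift88 and Ift52 had log2 fold changes from -0.01 (Ift52) to 0.18 (Ift74).

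IFT-A, the retrograde complex, was represented by Ift43, Ift122 and Ift140, with log2 fold changes of 0.10, -0.16 and -0.22. Ift43 read 170, 166, 218, 285 and 258 CPM in PBS and 192, 180, 267, 270 and 264 CPM in CNP. As for Ift20, the 5 libraries above 10 were highest whatever the injection. Ift140, mutated in syndromic and isolated retinal dystrophy, was sparse, with 101 PBS and 82 CNP counts, and its interval was wide (-0.84 to 0.40 on the log2 scale).

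The BBSome and Arl6 had 5 positive and 3 negative log2 fold changes, between -0.06 (Ttc8) and 0.10 (Bbs2). Arl6 read 349, 268, 292, 465 and 492 CPM in PBS and 346, 291, 422, 361 and 461 CPM in CNP, and the group means of 373 ± 101 and 376 ± 66.7 CPM (SD, n = 5 each) lay far closer together than the libraries within a group. The core subunits Bbs4 (227 ± 35.6 and 229 ± 34.9 CPM) and Bbs7 (173 ± 22.4 and 169 ± 12 CPM) were likewise at like means in PBS and CNP. Bbs10 and Bbs12, which help assemble the complex, had estimates of opposite sign. Bbs10 read 4.38, 5.54, 4.80, 5.44 and 5.86 CPM in PBS and 3.66, 3.82, 4.52, 4.52 and 4.47 CPM in CNP. Every CNP value lay below all PBS values but that of PBS 2, which CNP 12, CNP 16 and CNP 20 exceeded. It had the smallest p of the members in edgeR (log2 fold change -0.31, SE 0.19, adjusted p = 0.9997), from 116 PBS and 91 CNP counts. A two-sided exact permutation test of its mean CPM gave p = 0.0317, unadjusted and the only one under 0.05 among 40 such tests, where the smallest possible is 0.00794. The share of all tested genes under 0.05 in this permutation test is not given, so the value is descriptive. The CV of Bbs10, 15.3%, was below the 22% that counting alone gives. Bbs12 read 12, 9.35, 9.38, 17.2 and 15.6 CPM in PBS and 14.4, 12.3, 16.6, 15 and 15.7 CPM in CNP, a log2 fold change of 0.24 (SE 0.19, exact permutation p = 0.262).

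In the connecting cilium and transition zone, 3 of 10 genes had a positive and 7 a negative log2 fold change, where 48.8% of all tested genes were positive. Nphp4, a transition zone scaffold, read 7.08, 7.27, 6.98, 5.44 and 5.86 CPM in PBS and 5.67, 5.63, 6.02, 6.43 and 5.22 CPM in CNP, a log2 fold change of -0.19 (SE 0.15, exact permutation p = 0.119). PBS 2, 6 and 10 were above every CNP library and PBS 14 and 18 were among them. Cep290, which links microtubules to the ciliary membrane and is a frequent cause of Leber congenital amaurosis, had the highest estimate of all members (0.25, SE 0.24). It read 44.0, 50.6, 50.6, 58.6 and 76.5 CPM in PBS and 46.2, 58.3, 69.2, 44.8 and 114 CPM in CNP. CNP 20 stood above the rest, and without it the log2 fold change was -0.03. Rpgr, which binds RPGRIP1 at the connecting cilium, was counted 80 times in PBS and 70 times in CNP, so its interval reached from -0.64 to 0.42.

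Among lipidated-cargo genes, Arl3 alone was among the 6 members with the smallest p. It read 634, 771, 831, 1151 and 963 CPM in PBS and 828, 815, 1153, 1037 and 1224 CPM in CNP, a log2 fold change of 0.22 (SE 0.17, exact permutation p = 0.270). Pde6d, named for the rod phosphodiesterase it binds, read 966, 1109, 1223, 1978 and 1499 CPM in PBS and 1150, 1047, 1750, 1473 and 1637 CPM in CNP. Its highest and lowest libraries were both PBS, and its log2 fold change was 0.06 (SE 0.21). Unc119, the carrier of myristoylated transducin, averaged 1112 ± 288 CPM over the 5 PBS libraries and 1161 ± 185 CPM over the 5 CNP libraries (SD). Rp2, which stimulates GTP hydrolysis by ARL3, and Arl13b, which activates it, had log2 fold changes of -0.06 and 0.04. Mak, a kinase that restrains ciliary length, read 120, 88.3, 83.8, 121 and 141 CPM in PBS and 103, 85.2, 110, 102 and 128 CPM in CNP, with overlapping groups and a log2 fold change of -0.07 (SE 0.15).

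Over the members, 23 estimates were positive and 17 negative, with a median log2 fold change of 0.02. Over all tested genes 48.8% were positive and the median was -0.0036. The 95% interval lay within 2-fold in either direction for 40 of 40 members (93.9% of all genes) and within 1.5-fold for 30 (64.4%). Each interval is unadjusted and gives the range of differences compatible with these libraries. It is not a limit of detection.

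**Figure D2:**
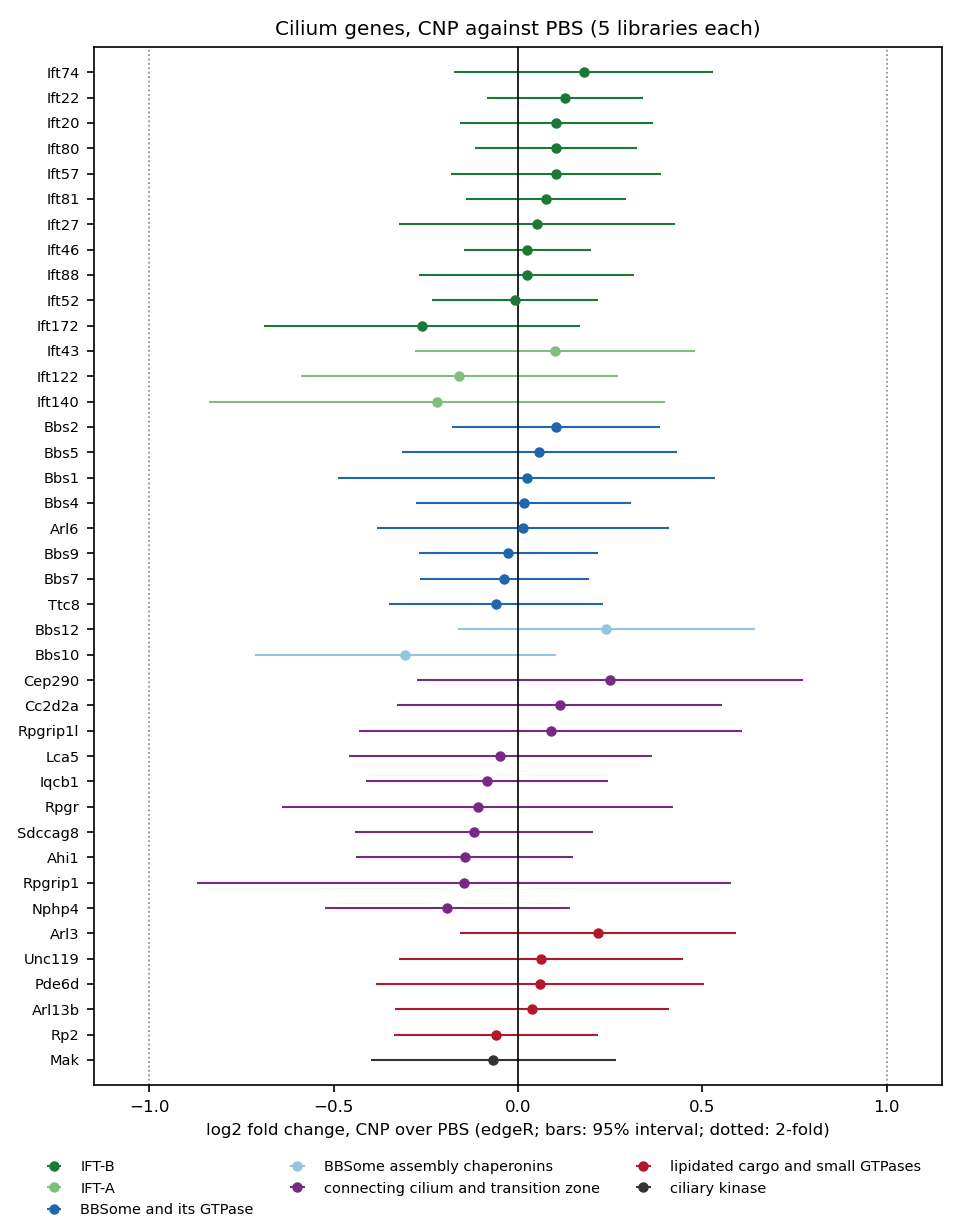
The log2 fold change of each member, CNP over PBS, with its 95% interval from edgeR, coloured by functional class, and dotted lines at 2-fold. Every interval covers 0 and lies inside the dotted lines, with estimates from -0.31 (Bbs10) to 0.25 (Cep290).

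A second list held 77 other cilium genes, of which 76 had a row, 70 were tested and 0 were called (0 also at unadjusted p under 0.05). Their log2 fold changes were positive in 38 and negative in 32, with a median of 0.01. Among the smallest p on the higher side were those of Cep250 (0.36, SE 0.25) and Rp1l1 (0.16, SE 0.12), and the smallest on the lower side belonged to Poc5 (-0.16, SE 0.11), Ttc21b (-0.21, SE 0.16) and Tulp3 (-0.31, SE 0.23). The most abundant of each group were Tulp1 (2245 CPM), Tmem237 (402), Kifap3 (135), Bbip1 (133) and Hspb11 (85.6 CPM). The copies Ttc30a1, Ttc30a2 and Ttc30b are nearly identical, so their counts are uncertain.

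Many members followed the library number. The libraries numbered up to 10 are PBS 2, 6 and 10 with CNP 4 and 8, and those above 10 are PBS 14 and 18 with CNP 12, 16 and 20. What the number stands for is not given, and the split at 10 was taken from earlier results of these data, so it is a description without a test. Of the 40 members, 14 (35%) were higher in every library above 10 than in every other library, against 9.82% of tested genes, and 0 were lower, against 10.8%. They were Ift20, Ift27, Ift74, Ift43, Bbs2, Bbs4, Bbs5, Arl6, Bbs12, Arl3, Arl13b, Rp2, Unc119 and Pde6d. The mean was higher above 10 for 35 of 40, against 47.4% of all genes, and the median log2 difference was 0.27, against -0.02 over all genes.

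The classes differed in how many of their members were so ordered. All 5 lipidated-cargo genes were, with Pde6d at 966 to 1223 CPM up to 10 and 1473 to 1978 CPM above 10, a 1.52-fold difference of means. Of the 8 BBSome genes 4 were, of the IFT-B genes 3 of 11, of IFT-A 1 of 3 and of the chaperonins 1 of 2. None of the 10 connecting cilium genes and not Mak were, and Iqcb1, which binds CEP290, had a lower mean above 10 (16.3 ± 1.29 against 20.8 ± 2.58 CPM, SD, n = 5 each). The median log2 difference was 0.07 for connecting cilium and 0.51 for lipidated-cargo genes, with Cep290 at 0.54. With CNP 16 left out, Cep290 and Lca5 were also ordered higher and Iqcb1 lower. Rpgr, Rpgrip1l, Nphp4 and Cc2d2a were under 10 CPM, where counting error makes overlap more likely. Of the 70 other cilium genes tested, 15 were higher, Tulp1 among them, and 1 was lower, the kinesin-2 motor gene Kif3a. The background for the counts over all 10 libraries is 9.82% of tested genes higher and 10.8% lower. With CNP 16 left out it is 11.8% higher and 14.9% lower.

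The scaling bears on these counts. Under division by library totals alone, which put the median gene 0.23 lower above 10 on the log2 scale, 4 members were higher without overlap (Ift43, Arl3, Unc119 and Pde6d), against 3.45% of genes, and 1 was lower (Iqcb1), against 21.5%. The mean was then higher above 10 for 22 of 40, with a member median of 0.06, which is above that of all genes.

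Markers of several cell types were ordered by the same split, with the same 9.82% and 10.8% of all genes as background. Of the 10 rod markers 8 were higher above 10 without overlap, their sum being 54070 to 64675 CPM up to 10 and 74846 to 104243 CPM above it, and of the 8 cone markers 4 were. Of the 9 pigment epithelium markers 5 were higher, their sum being 472 to 1263 and 1424 to 2474 CPM. Of the 7 amacrine markers 6 were lower, of the 7 ganglion cell markers 5, and of the 7 bipolar markers 4. Of the 6 Mueller glia markers 1 was lower and 0 were higher, and of the 8 lens, 7 microglia and 9 motile ciliated epithelium markers 0 were ordered in either direction. The part of these cell types in the members' order was not tested.

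**Figure D3:**
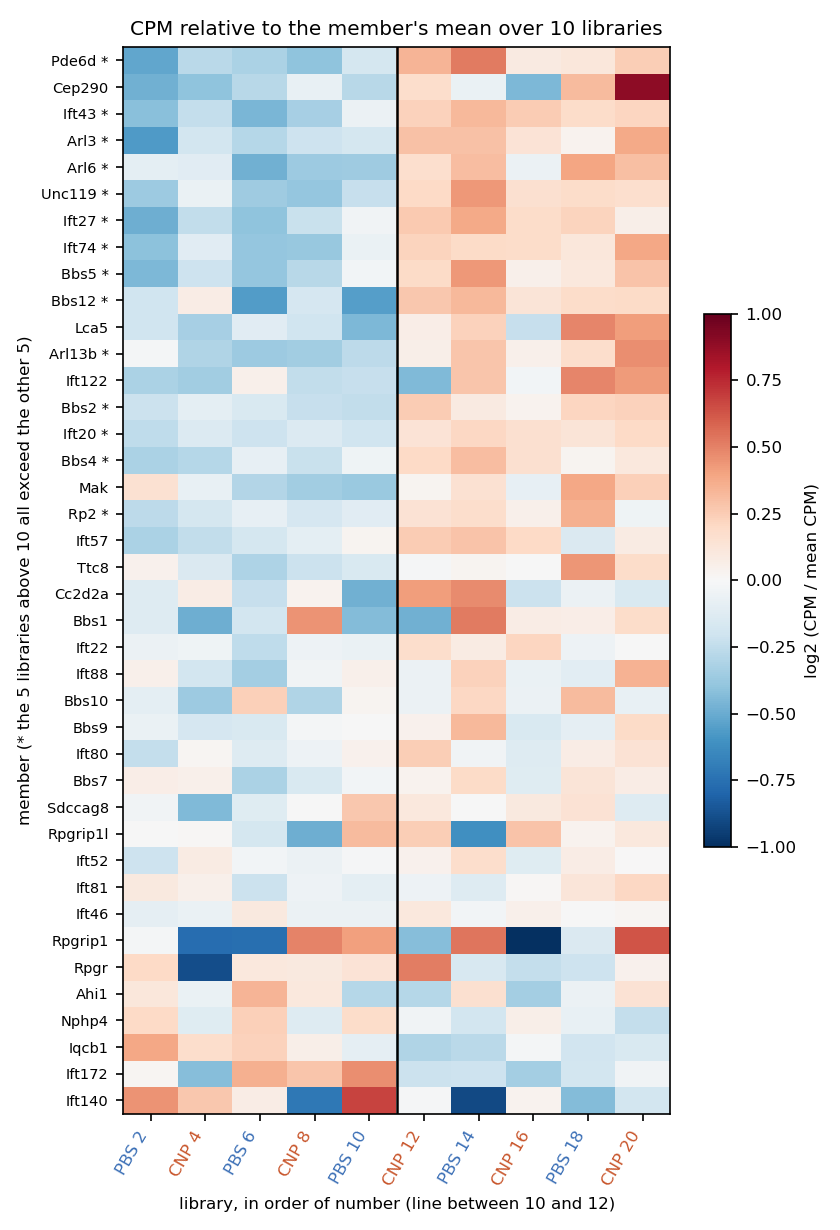
Log2 CPM of each member relative to its own mean, 40 members by 10 libraries in order of number, with PBS names in blue, CNP names in orange and a line between 10 and 12. Each of the 14 starred members is higher in every library right of the line than in any library left of it, in both groups, though Arl6 in CNP 16 and Rp2 in CNP 20 lie slightly below the member's mean.

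With library number above 10 as a covariate in the edgeR fit, 0 members were called, against 0% of all genes, and 0 had an unadjusted p under 0.05 (smallest 0.0804, Bbs10). The median SE of the members fell from 0.17 to 0.10, and 35 intervals rather than 30 lay within 1.5-fold. Because the split at 10 was taken from earlier results of these data, a smaller spread was partly built in. The SE, intervals and p-values of this fit are descriptive. The positive estimates numbered 13 in place of 23, with a median of -0.03. The sign of 10 of the 40 estimates changed with this term.

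The spread of the members over the 10 libraries was close to that of other genes. Their median CV was 18.7%, against 18.9% over all tested genes, and at 20 CPM or more it was 15.6% over 28 members, against 13.7% over 5667 genes. For 7 members the CV was at or below the Poisson value. Rpgrip1, the scaffold that anchors RPGR at the connecting cilium, was the widest at 40.8%, and 2.38% of genes at 20 CPM or more were as wide. Cep290 followed at 34.7%.

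**Figure D4:**
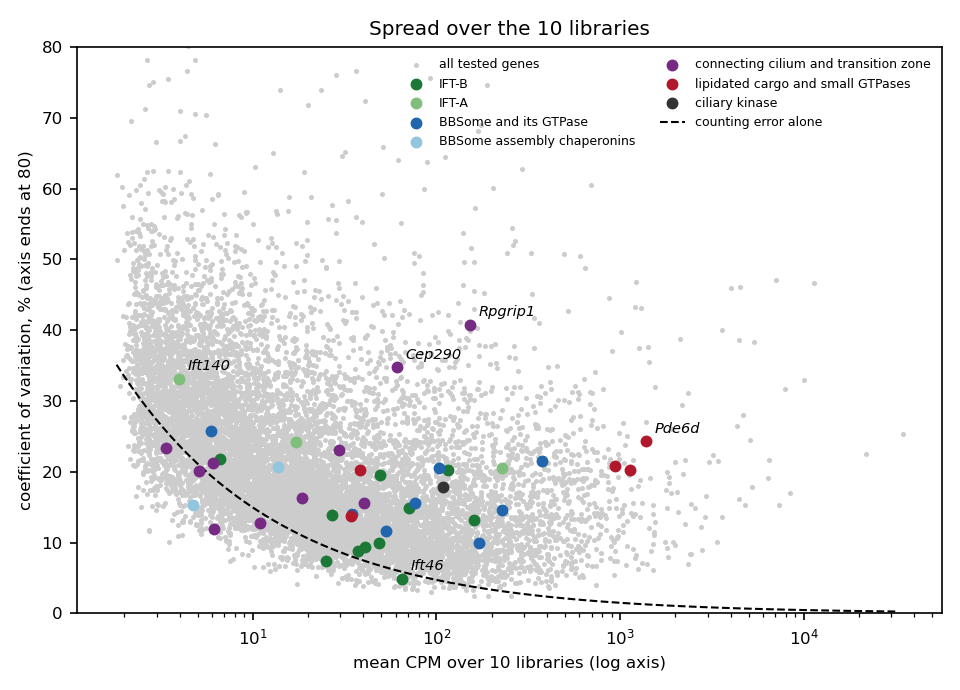
Coefficient of variation over the 10 libraries against mean CPM (log axis), members coloured by class over all tested genes in grey, with the counting error as a dashed line; genes above 80% are not drawn. Rpgrip1 (40.8%) and Cep290 (34.7%) stand above the other members at 20 CPM or more, and Ift46 (4.90%) lies below the line.

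Rpgrip1 read 151, 90.7, 203, 222 and 139 CPM in PBS and 90.1, 216, 114, 68.3 and 237 CPM in CNP. PBS 10, PBS 14, CNP 8 and CNP 20 were high and PBS 6, CNP 4 and CNP 16 low, so that both groups and both number sets held high and low libraries. Its log2 fold change was -0.15 (SE 0.33), with the widest interval of the members (-0.87 to 0.58). Among 5666 genes at 20 CPM or more, 63 had a Pearson r of 0.9 or above with it over the 10 libraries, and none was a member. The most alike were Zmynd8, Wtap, Ric1, Alkbh5, Arglu1, Jag1, Hsf2 and Pan3. Wtap, a subunit of the RNA m6A methyltransferase, ran from 76.9 to 591 CPM (r = 0.99, Spearman's rho = 0.94), and r was 0.99 again without CNP 16 and CNP 20, the libraries farthest from the median. Arglu1 ran from 72.2 to 431 CPM (r = 0.99, rho = 0.98). These genes were found by their likeness in these libraries, share depth and scaling with Rpgrip1, and carry no p.

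For Cep290, 6 genes reached r = 0.9, led by Hnrnpu (r = 0.96, and 0.86 without CNP 20 and PBS 18). For Pde6d, 545 of the 5666 genes did, 8 of them members, where 28 members including Pde6d were at 20 CPM or more. For Ift46, 1 gene did and no member.

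**Figure D5:**
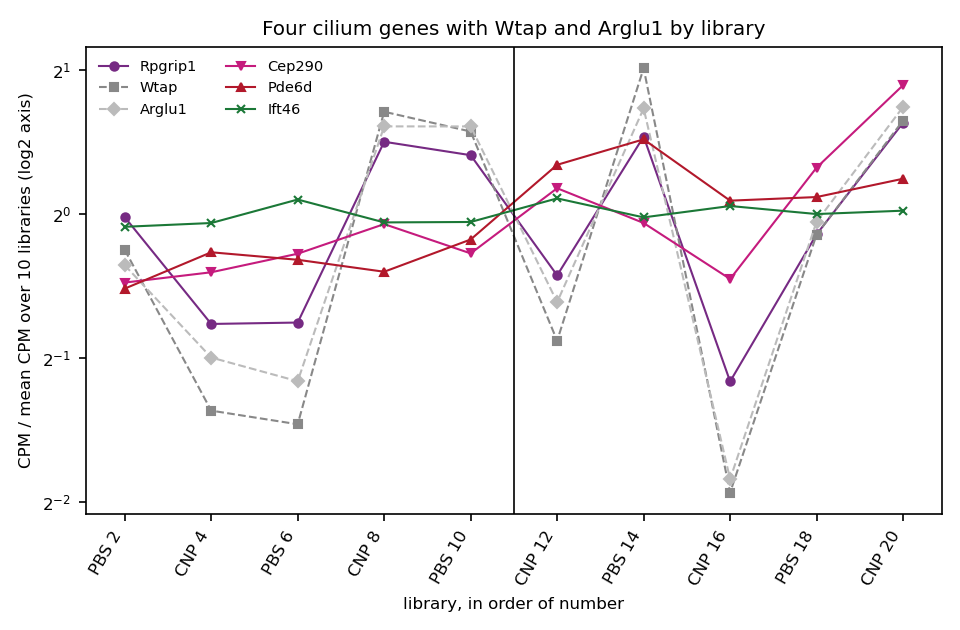
CPM divided by the mean over 10 libraries (log2 axis) for Rpgrip1, Cep290, Pde6d and Ift46, with Wtap and Arglu1, by library number; the line separates 10 from 12. Rpgrip1, Wtap and Arglu1 share their highs and lows, with a low at CNP 16, while Pde6d is higher right of the line and Ift46 stays flat (61.2 to 70.1 CPM).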

How the data were processed

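Polyadenylated RNA was reverse transcribed with barcoded primers carrying molecular identifiers, per the labels' protocols. The submitters' processing notes name STAR, STARsolo and the build GRCm39, without their roles. Neither tool versions nor strand use, annotation or collapsing of identifiers were given in the sources used here. The deposited table holds whole-number counts per Ensembl gene, used as the authors left them. Symbols came from a supplied table (51880 of 57186 IDs had one), and 6 other cilium genes were matched by an older name. Exon lengths were the union of each gene's exons in GENCODE M21 (GRCm38).

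The 5 PBS and 5 CNP libraries were compared in R 4.3.3 with edgeR 4.0.16 (glmQLFTest, two-sided, TMM, filterByExpr with minimum count 10 and total 15), with p-values adjusted over 11499 genes at a threshold of 0.05. SE and 95% intervals were derived from the edgeR p-value and its degrees of freedom, because the F statistic alone gave other values for low-count genes. Single genes were also given an exact permutation test over 252 assignments. Alternatives were DESeq2 1.42.0, limma-voom 3.58.1, other scalings, no filter, covariates and leaving out each library. The script was tested on simulated data.

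Values in every library are given for the 6 members with the smallest p, the most abundant of each class, and the widest and narrowest at 20 CPM or more. Cep290 was added after its values were seen. For the pathway list, up to 3 genes per direction with the smallest p and the most abundant per group are named, except 1 that is not reported here. Members and lists were chosen with earlier results of these data known. The list of promoters shown was changed during the work, at times after motif matches were seen, and was put back to the first choice, which was made on expression. All 6 motif spellings tried are reported with both windows.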

Additional observations from a re-analysis of the deposited data

Results flagged for a closer look

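In 2 of 80 groups of 5 libraries (40 members in each of 2 treatments), 1 library stood apart from the other 4 by more than Dixon's 95% critical value of 0.71, where chance gives about 1 group in 20. Ift88 was 34.3 CPM in CNP 20, and the next CNP library was at 26.3 CPM. Bbs9 was 66.7 CPM in PBS 14, and the next PBS library was at 53.2 CPM.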

How the results depend on the processing

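No member and no other cilium gene was called under any of the 20 alternatives to the edgeR comparison. Members with a positive estimate numbered 23, and 13 with library number as a covariate, 12 with a pigment epithelium score, and 14 to 28 when 1 library was left out (14 without PBS 6). In all, 24 of 40 members changed sign under at least 1 alternative and 16 did not. With a rod score as a covariate, 1 of 40 members (Arl3) had an unadjusted edgeR p under 0.05 (0.0222), against 315 of all 11499 genes. Over all genes, the unadjusted count was 137 with edgeR, 86 with DESeq2, 142 with limma-voom, 422 without a filter (22756 genes), 272 with library number, 644 with the pigment epithelium score and 315 with the rod score. It was 301 without PBS 14. The cause was not tested.

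The alternatives for the library number sets and for the spread were chosen after seeing the data. Members higher above 10 without overlap numbered 14, and 4 by library totals only, 15 with RLE or upper-quartile scaling, and 14 to 16 when 1 library was left out. The 14 genes were among them under each of these but library totals. Of all tested genes, 9.82% were higher in the main setting and 3.45% by library totals only. The share was 10.7% with RLE, 11.1% with upper-quartile scaling and 10.2% to 13% when 1 library was left out. Members lower numbered 0, and 1 by library totals only and 0 to 1 when 1 library was left out (Iqcb1 without PBS 10 or CNP 16, Ift172 without CNP 4, Ift140 without CNP 8). Of all tested genes, 10.8% were lower in the main setting, 21.5% by library totals only and 10.8% to 14.9% when 1 library was left out. The median CV was 18.7%, and 14.3% by library totals only. No paired analysis was made because the labels give no pairing. Depth limits the 8 members under 10 CPM, whose counting error alone exceeds 18%.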
